A study of Mus musculus with 12 samples.

Results

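The genes of respiratory complex I were taken as all those whose name in the array files begins with Nduf. There were 38 of them among the 15233 genes tested. By known role, 7 were nuclear core subunits, 28 accessory subunits and 2 assembly factors, and the remaining member, Ndufa4, has since been assigned to complex IV. The name Ndufa12l is an older one of the assembly factor now called Ndufaf2. Levels are given as log2 of the processed signal minus the 75th percentile of the array, so a difference of 1 is a 2-fold difference, and each gene is represented by its brightest probe. The members were represented by 56 probes, 53 of which passed the filter on dim signal. All 38 members passed it. Of these, 37 were well above background on all 12 arrays, and Ndufa13 lacked a value on 1 array because the scanner software had marked its spot as non-uniform. The 11 members with more than 1 usable probe had changes of 1 sign on all their probes on denervation, in both genotypes. The sizes differed in either direction. In wild-type muscle Ndufb8 changed by -0.65 on the probe used and -1.65 on a dimmer one. In knockout muscle Ndufab1 changed by -1.22 on the probe used and -0.69 on a dimmer one. The low-gain scan was used for 175 of the 456 spots of the members' probes. Whether brightness bears on the size of a change was not tested.

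Complex I, NADH:ubiquinone oxidoreductase, is an entry point of the mitochondrial electron transport chain. Its matrix arm takes electrons from NADH through a bound flavin and a chain of iron-sulfur clusters and hands them to ubiquinone, and its membrane arm uses the energy released to pump protons. The enzyme consists of core subunits, which do the chemistry and are shared with bacteria, and of accessory subunits added in evolution. Assembly factors help to put it together and are not part of the finished enzyme. Most of its genes lie in the nucleus, and the membrane-bound core subunits are encoded in mitochondrial DNA. Oxidative muscle fibres hold much of this enzyme, and a muscle that loses its nerve is known to lose oxidative capacity.

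Signals came from total RNA of whole gastrocnemius, a calf muscle, of adult male CD1 mice. The 4 groups were Smad4 knockout (KO) muscle after 14 days of denervation, KO control muscle with its nerve, wild-type (WT) muscle after 14 days of denervation, and WT control muscle with its nerve. Each group had 3 numbered arrays, 12 in all. The labels do not say whether denervated and control muscle of one number came from the same animal. Smad4 is the shared partner of the Smad proteins that act in TGF-beta and BMP signalling. The labels do not say how the gene was deleted, in which cells or where its probes lie relative to the deletion.

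Of the 41174 probes, 49.97% to 56.4% were well above background by array. The 75th percentile subtracted was 219 to 364 intensity units. No spot was saturated. Within groups, pairs of arrays had correlations of 0.974 to 0.985 over genes. Smad4 was lower in KO than in WT muscle, by a log2 difference of -1.42 ± 0.15 (SE) in denervated and -1.46 ± 0.15 (SE) in control muscle. Of the 10 fixed markers of skeletal muscle fibres, 9 were well above background on all 12 arrays and the other on 11. The arrays lay on 4 slides, and no slide held all 4 groups. The p-values measure the spread between these arrays, and 3 arrays per group limit the precision of every value.

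The DNA around the starts of the members was searched for motifs of factors known to drive respiratory genes. RefSeq windows of 300 bases (250 before to 50 after the start, GRCm38.p6) were at hand for 34 of the 38 members. Then 4 short motifs were searched on both strands: GCGCATG for NRF1, CCGGAAG for GABPA and other ETS factors, AAGGTCA for ESRRA, and ATGGCGG for YY1. The YY1 motif was found in 8 of the 34 members (23.5%), against 4.69% of all 27025 genes with windows. The NRF1 motif was found in 5 (14.7%, against 4.41% of all genes), the ETS motif in 5 (14.7%, against 9.93%) and the ESRRA motif in 3 (8.82%, against 5.38%). Of the 34 members, 14 held none of these letters, 19 held 1 motif and Ndufb6 held 2. A match is a description of the letters, not a bound site. The windows below belong to members described further on: the core subunits Ndufs7 and Ndufs8, the accessory subunits Ndufa11 and Ndufb2, which all fell on denervation, and Ndufb7, which did not pass the test. Capitals mark the motif, and each window runs 5′ to 3′ on the strand of the gene.
Ndufs7 (chr10:80249199-80249498, plus strand): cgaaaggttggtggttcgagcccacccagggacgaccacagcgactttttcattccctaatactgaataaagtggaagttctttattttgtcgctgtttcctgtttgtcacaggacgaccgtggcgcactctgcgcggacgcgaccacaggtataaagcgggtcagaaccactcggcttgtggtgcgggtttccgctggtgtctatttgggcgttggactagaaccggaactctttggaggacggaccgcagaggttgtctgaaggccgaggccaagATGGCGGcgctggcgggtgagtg
Ndufs8 (chr19:3912725-3913024, minus strand): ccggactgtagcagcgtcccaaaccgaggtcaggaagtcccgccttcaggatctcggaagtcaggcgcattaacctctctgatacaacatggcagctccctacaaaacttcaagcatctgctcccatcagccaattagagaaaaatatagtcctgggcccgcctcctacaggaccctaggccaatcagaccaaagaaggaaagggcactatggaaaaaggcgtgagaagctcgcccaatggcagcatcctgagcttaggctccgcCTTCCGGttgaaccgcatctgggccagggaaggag
Ndufa11 (chr17:56717512-56717811, plus strand): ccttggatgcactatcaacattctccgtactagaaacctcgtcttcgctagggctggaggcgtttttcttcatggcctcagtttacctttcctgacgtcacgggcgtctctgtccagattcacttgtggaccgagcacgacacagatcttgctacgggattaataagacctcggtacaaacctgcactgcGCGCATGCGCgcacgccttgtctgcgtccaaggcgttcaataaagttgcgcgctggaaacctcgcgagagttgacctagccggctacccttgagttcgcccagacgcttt
Ndufb2 (chr6:39592315-39592614, plus strand): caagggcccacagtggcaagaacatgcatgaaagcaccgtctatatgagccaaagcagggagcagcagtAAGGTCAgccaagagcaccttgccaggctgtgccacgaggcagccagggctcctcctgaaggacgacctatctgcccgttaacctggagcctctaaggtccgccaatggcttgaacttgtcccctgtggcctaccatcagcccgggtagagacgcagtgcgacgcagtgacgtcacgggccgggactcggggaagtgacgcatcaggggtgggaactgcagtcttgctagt
Ndufb7 (chr8:83566508-83566807, plus strand): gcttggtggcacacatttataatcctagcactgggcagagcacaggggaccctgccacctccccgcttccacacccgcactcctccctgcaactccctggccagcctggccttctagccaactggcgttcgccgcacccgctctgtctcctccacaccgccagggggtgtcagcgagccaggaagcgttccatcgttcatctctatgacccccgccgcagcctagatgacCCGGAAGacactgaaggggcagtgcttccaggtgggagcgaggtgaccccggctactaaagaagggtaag
In Ndufs7 the YY1 motif began at base 28 after the start. In Ndufs8 the ETS motif lay on the other strand, at base 16 after the start. In Ndufa11 the NRF1 motif was found on both strands, overlapping, from 60 bases before the start. In Ndufb2 the ESRRA motif began 181 bases before the start, and in Ndufb7 the ETS motif began 20 bases before it. The promoters of the other 4 members were not searched. With the YY1 motif the median log2 change on denervation was -0.92 in KO and -0.61 in WT muscle, against -0.94 in KO and -0.66 in WT muscle without it. With the NRF1 motif it was -0.96 in KO and -0.74 in WT muscle, against -0.86 in KO and -0.64 in WT muscle without it. With the ETS motif it was -0.76 in KO and -0.66 in WT muscle, against -0.95 in KO and -0.66 in WT muscle without it. With the ESRRA motif it was -1.03 in KO and -0.64 in WT muscle, against -0.93 in KO and -0.66 in WT muscle without it. No test was made of these medians.

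Denervation lowered most complex I genes in both genotypes, in WT muscle not under every background correction. In KO muscle 32 of the 38 members fell and none rose, where 23.2% of all 15233 genes fell and 23.7% rose (limma across all genes, Benjamini-Hochberg adjusted p under 0.05). The median change of the 38 members was -0.94 on the log2 scale, 52.1% of the control level, against 0.00 for all genes. In WT muscle 26 of the 38 fell and none rose, where 20.6% of all genes fell and 18.7% rose. The median change there was -0.66, 63.3% of the control level, against -0.02 for all genes. With normexp background correction the WT count was 9 of 38, with 1909 of the 15233 genes called, and the KO count was 22. The comparison asks how 14 days without nerve altered these transcripts with and without Smad4. All 26 members that fell in WT muscle also fell in KO muscle, 6 fell in KO muscle alone by this threshold, and 6 passed it in neither. The difference between the genotypes is tested further on. Across the 38 members the changes in the 2 genotypes correlated with r = 0.679, against 0.880 across all genes. The 38 include Ndufa12l, whose KO change of -1.02 became 0.75 without KO control replicate 3. The correlation without this gene was not computed. The 38 points share arrays and scaling. On single arrays, 31 members were lower on every KO denervated than on every KO control array (28.2% of all genes), and 29 were lower on every WT denervated than on every WT control array (27.1%).

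**Figure D1:**
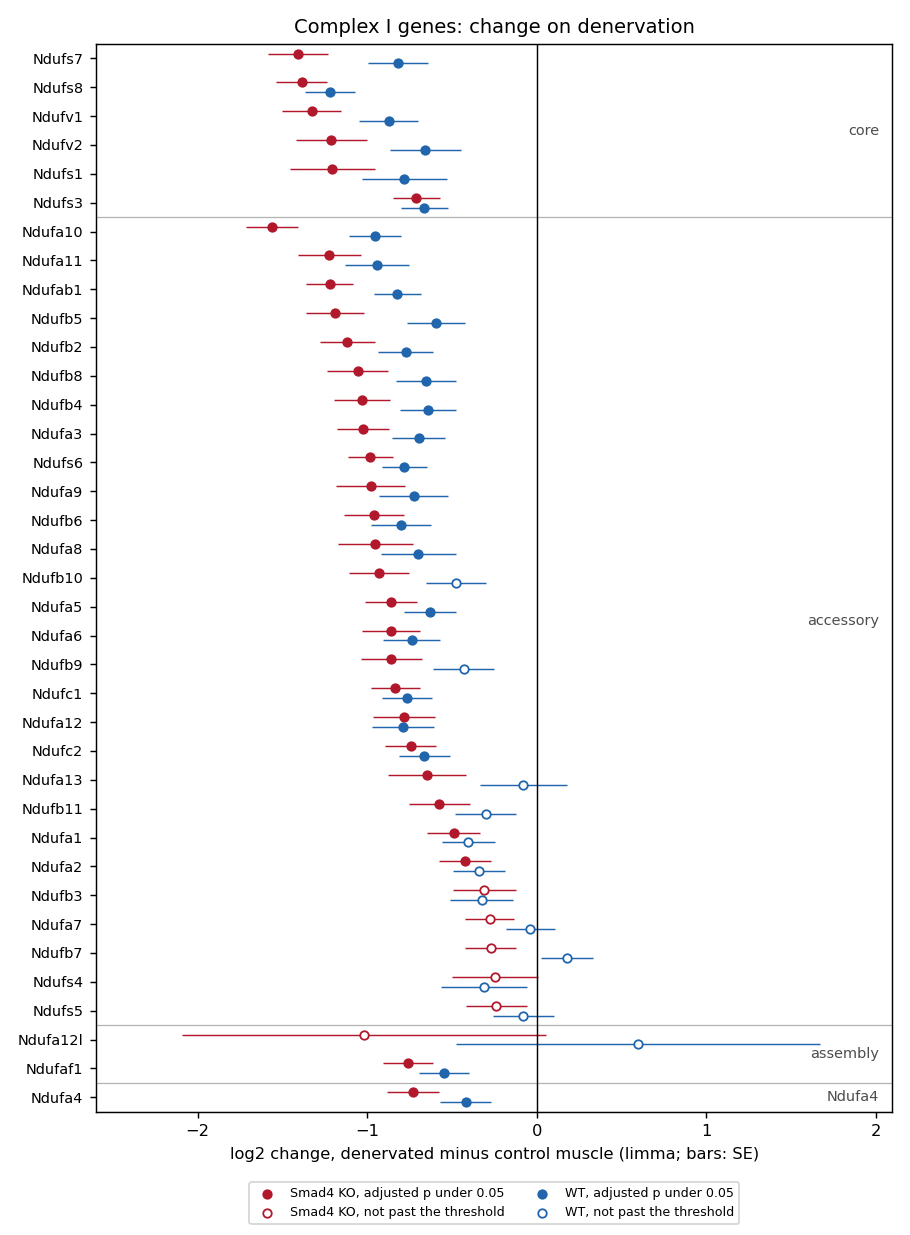
Log2 change on denervation of each of 37 members, by role, in KO (red) and WT (blue) muscle, with the standard error of the limma fit as bars; filled points passed the adjusted p threshold. All 6 core subunits plotted lie left of 0 with filled points in both genotypes, and the wide bars of Ndufa12l come from 1 array.

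The core subunits of the matrix arm fell as a group. All 7 passed the test in both genotypes (6 in KO and 4 in WT muscle with normexp background correction), with a median log2 change of -1.33 in KO muscle and -0.82 in WT muscle (between -1.22 and -0.66). Their median stayed below that of the accessory subunits under each of the 5 scalings compared, and all 7 changes stayed below 0 there in both genotypes. The summed linear signal of the 7 probes, in multiples of the array's 75th percentile, lay between 221 and 238 on the KO denervated arrays, against 508 to 567 on the KO control arrays. It lay between 247 and 299 on the WT denervated arrays, against 391 to 541 on the WT control arrays. In neither genotype did the sums of denervated and control arrays overlap.

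Among the core subunits, Ndufs7 carries the last iron-sulfur cluster of the chain, next to the pocket in which ubiquinone is reduced. Ndufs7 gave 5.55, 5.61 and 5.61 in KO denervated muscle, against 6.88, 7.2 and 6.92 in KO control muscle. It gave 5.94, 6.04 and 5.75 in WT denervated muscle, against 6.35, 6.88 and 6.97 in WT control muscle. The KO denervated arrays lay close together and below every other array. The log2 change was -1.41 ± 0.18 (SE), 37.6% of the control level (adjusted p = 8.86e-05) in KO and -0.82 ± 0.18 (SE), 56.6% of the control level (adjusted p = 0.00382) in WT muscle. Its probe A_51_P364671 maps to chromosome 10 (plus strand), 79659823 to 79659882 in mm8, and its promoter window with the YY1 motif is printed above.

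Ndufs8 carries the iron-sulfur clusters just before that of Ndufs7. Ndufs8 gave 2.49, 2.24 and 2.53 in KO denervated muscle, against 3.87, 3.85 and 3.71 in KO control muscle. It gave 2.82, 2.43 and 2.39 in WT denervated muscle, against 3.71, 3.82 and 3.77 in WT control muscle. Denervated and control arrays did not overlap, and the KO denervated and WT denervated arrays did. Ndufs8 changed by -1.39 ± 0.15 (SE), 38.2% of the control level (adjusted p = 3.01e-05) in KO and -1.22 ± 0.15 (SE), 43.0% of the control level (adjusted p = 9.94e-05) in WT muscle, where it was the lowest of the 38 members. Its probe A_51_P247441 maps to chromosome 19 (minus strand), 3911200 to 3911568 in mm8, and its promoter window with the ETS motif is printed above.

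Ndufs3 is the core subunit of the ubiquinone-reducing part that holds no redox cofactor and no quinone pocket. Ndufs3 gave 5.72, 5.86 and 5.71 in KO denervated muscle, against 6.36, 6.63 and 6.43 in KO control muscle. It gave 5.87, 5.78 and 5.6 in WT denervated muscle, against 6.43, 6.26 and 6.56 in WT control muscle. KO denervated and WT denervated arrays overlapped, and both lay below all control arrays. Ndufs3 changed by -0.71 ± 0.14 (SE), 61.1% of the control level (adjusted p = 0.00172) in KO and -0.66 ± 0.14 (SE), 63.2% of the control level (adjusted p = 0.00337) in WT muscle, the smallest KO change of the core subunits. With normexp background correction both changes kept their sign and no longer passed (adjusted p = 0.0750 in KO and 0.0560 in WT muscle). Its probe A_51_P395014 maps to chromosome 2 (minus strand), 90695521 to 90695580 in mm8.

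Ndufv1 binds NADH, the flavin and an iron-sulfur cluster. Ndufv1 gave 5.53, 5.73 and 5.6 in KO denervated muscle, against 6.88, 7.1 and 6.86 in KO control muscle. It gave 5.71, 6.17 and 5.86 in WT denervated muscle, against 6.47, 7.01 and 6.89 in WT control muscle. All denervated arrays were below all control arrays, and KO denervated and WT denervated arrays overlapped slightly. Denervation changed Ndufv1 by -1.33 ± 0.17 (SE), 39.8% of the control level (adjusted p = 0.000123) in KO and -0.87 ± 0.17 (SE), 54.6% of the control level (adjusted p = 0.00252) in WT muscle. Its probe A_51_P364339 maps to chromosome 19 (minus strand), 4007616 to 4007779 in mm8.

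Ndufv2 is the partner of Ndufv1 at the tip of the matrix arm and carries an iron-sulfur cluster. Ndufv2 gave 4.24, 4.2 and 4.23 in KO denervated muscle, against 5.32, 5.5 and 5.47 in KO control muscle. It gave 4.81, 4.52 and 4.31 in WT denervated muscle, against 4.7, 5.34 and 5.57 in WT control muscle. The KO denervated arrays lay below every other array. In WT muscle the groups overlapped, because WT control replicate 1 lay below WT denervated replicate 1, both hybridised on slide 1. Ndufv2 changed by -1.21 ± 0.21 (SE), 43.2% of the control level (adjusted p = 0.000802) in KO and -0.66 ± 0.21 (SE), 63.4% of the control level (adjusted p = 0.0288) in WT muscle. With the replicate number as a block within genotype the WT change did not pass (adjusted p = 0.0730), nor did it with slide as a fixed block (-0.43, adjusted p = 0.225). Leaving out 1 of WT denervated replicates 2 or 3 or WT control replicates 2 or 3 also ended the WT call, at adjusted p up to 0.113. So did normexp (adjusted p = 0.103), no filter on dim probes (adjusted p = 0.0631) and the arrays of the 2 WT groups alone (adjusted p = 0.0839). Its probe A_51_P261470 maps to chromosome 17 (minus strand), 65988872 to 65989013 in mm8.

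Ndufs1, the largest subunit, carries iron-sulfur clusters between the flavin and the ubiquinone-reducing part. Ndufs1 gave 4.93, 5.37 and 5.13 in KO denervated muscle, against 6.44, 6.06 and 6.54 in KO control muscle. It gave 5.56, 5.71 and 5.35 in WT denervated muscle, against 5.72, 6.73 and 6.52 in WT control muscle. KO denervated and KO control arrays were far apart, whereas WT control replicate 1 lay barely above WT denervated replicate 2. Ndufs1 changed by -1.21 ± 0.25 (SE), 43.4% of the control level (adjusted p = 0.00241) in KO and -0.78 ± 0.25 (SE), 58.2% of the control level (adjusted p = 0.0288) in WT muscle. The WT call ended without WT denervated replicate 1 or 3 or WT control replicate 2 or 3, at adjusted p up to 0.113, and with slide as a fixed block (adjusted p = 0.0883). It also ended with normexp (adjusted p = 0.108) and in the authors' deposited values (adjusted p = 0.0630). The same held without the filter on dim probes (adjusted p = 0.0621) and with the arrays of the 2 WT groups alone (adjusted p = 0.0624). Its probe A_51_P379597 maps to chromosome 1 (minus strand), 63078062 to 63078121 in mm8.

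**Figure D2:**
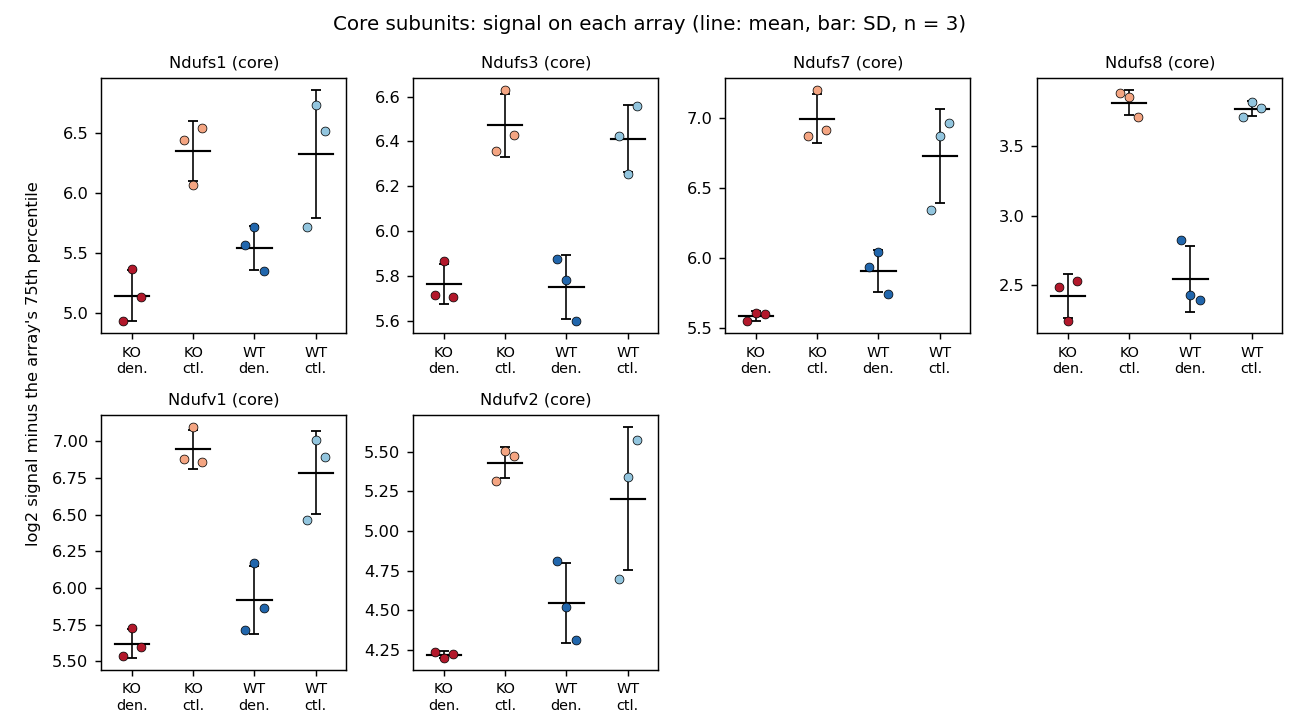
Signal of 6 core subunits on each of the 12 arrays, as log2 signal minus the 75th percentile of the array, with the mean and SD of each group of 3. In every panel the KO denervated points lie below the KO control points, and in Ndufv2 the WT denervated and WT control points overlap.

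By place in the enzyme, the ubiquinone-reducing Q module comes first. All 6 of its measured members fell in both genotypes, with a median of -1.18 in KO and -0.77 in WT muscle. Besides the 4 core subunits these are Ndufa5 and Ndufa9, accessory subunits bound to them. Of the 9 members of the NADH-oxidising N module, 7 fell in KO muscle (median -0.86) and 6 in WT muscle (median -0.74). Of the 19 members of the membrane arm, 16 fell in KO muscle (median -0.93) and 11 in WT muscle (median -0.64). The 5 core subunits that carry a redox cofactor had a median of -1.33 in KO and -0.82 in WT muscle. Over all genes, 23.2% fell in KO and 20.6% in WT muscle. The medians of the modules are descriptions, and no test was made between modules.

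The changes of the 28 accessory subunits covered a wider range than those of the 7 core subunits. A range tends to widen with the number of genes, and the spreads were not tested against each other. Of 28, 23 fell in KO muscle, with a median log2 change of -0.86 (between -1.56 and -0.24). In WT muscle 17 of the 28 fell, with a median of -0.65 (between -0.95 and 0.18). The shares of all genes that fell were 23.2% in KO and 20.6% in WT muscle. The lowest by the mean of both genotypes were Ndufa10, Ndufa11 and Ndufab1, and the highest were Ndufb7 and Ndufa7.

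Ndufa10 sits on the matrix side of the membrane arm and resembles a nucleoside kinase. Ndufa10 gave 3.93, 3.49 and 3.67 in KO denervated muscle, against 5.2, 5.34 and 5.24 in KO control muscle. It gave 4.42, 4.25 and 4.01 in WT denervated muscle, against 5.09, 5.27 and 5.18 in WT control muscle. The KO denervated arrays were the lowest, the WT denervated arrays came next, and neither overlapped any control array. The log2 change was -1.56 ± 0.15 (SE), 33.9% of the control level (adjusted p = 1.62e-05) in KO and -0.95 ± 0.15 (SE), 51.6% of the control level (adjusted p = 0.000650) in WT muscle. Its probe A_51_P272123 maps to chromosome 1 (minus strand), 94294868 to 94297825 in mm8.

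Ndufa11 is a membrane subunit at the contact with complex III. Ndufa11 gave 1.79, 1.73 and 1.83 in KO denervated muscle, against 2.98, 3.13 and 2.92 in KO control muscle. It gave 2.14, 2.0 and 2.38 in WT denervated muscle, against 2.76, 3.06 and 3.52 in WT control muscle. The order of groups was as for Ndufa10, with no overlap between KO denervated, WT denervated and control arrays. The log2 change of Ndufa11 was -1.22 ± 0.19 (SE), 42.8% of the control level (adjusted p = 0.000341) in KO and -0.94 ± 0.19 (SE), 52.0% of the control level (adjusted p = 0.00242) in WT muscle. Its probe A_51_P279854 maps to chromosome 17 (plus strand), 56402942 to 56403001 in mm8, and its window, printed above, held the NRF1 motif on both strands.

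Ndufab1 is the mitochondrial acyl carrier protein, which also serves fatty acid synthesis and iron-sulfur cluster assembly. Ndufab1 gave 5.02, 4.78 and 4.76 in KO denervated muscle, against 6.17, 6.05 and 6.0 in KO control muscle. It gave 5.27, 5.07 and 4.95 in WT denervated muscle, against 5.8, 5.91 and 6.04 in WT control muscle. Denervated arrays lay below control arrays in both genotypes, and KO denervated replicate 1 fell within the range of the WT denervated arrays. For Ndufab1 the log2 change was -1.22 ± 0.14 (SE), 42.9% of the control level (adjusted p = 4.49e-05) in KO and -0.82 ± 0.14 (SE), 56.6% of the control level (adjusted p = 0.000892) in WT muscle. Its probe A_52_P1093473 maps to chromosome 7 (minus strand), 121882765 to 121882824 in mm8.

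Other accessory subunits that fell in both genotypes included Ndufb5 of the membrane arm (log2 -1.19 ± 0.17 (SE) in KO and -0.59 ± 0.17 (SE) in WT muscle) and Ndufb2, whose window is printed above (-1.12 ± 0.16 (SE) in KO and -0.77 ± 0.16 (SE) in WT muscle). Leaving out the third array of WT denervated or of WT control muscle ended the WT call of Ndufb5 (adjusted p = 0.0687 and 0.0727, in this order), as did slide as a fixed block (adjusted p = 0.0806) and normexp (adjusted p = 0.167). Those of Ndufb2 and Ndufa12 ended with normexp alone of the 23 alternatives. Ndufs6, a zinc-binding subunit of the N module, changed by -0.98 ± 0.13 (SE) in KO and -0.78 ± 0.13 (SE) in WT muscle. Ndufa12, which takes its place in the N module late in assembly, changed by nearly equal amounts, -0.78 ± 0.18 (SE) in KO and -0.79 ± 0.18 (SE) in WT muscle. Of the 10 Ndufb genes of the membrane arm, 8 fell in KO and 5 in WT muscle (all genes: 23.2% in KO and 20.6% in WT).

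The 6 members that fell in KO muscle alone by the threshold were Ndufb10, Ndufb9, Ndufa13, Ndufb11, Ndufa1 and Ndufa2. Their KO changes lay between -0.93 (Ndufb10) and -0.42 (Ndufa2) and their WT changes between -0.47 (Ndufb10) and -0.08 (Ndufa13). Of 23 alternatives, 14 ended the KO call of Ndufa2, 8 that of Ndufb11, 7 that of Ndufa1 and 3 that of Ndufb9. With quantile normalization the KO change was -0.09 for Ndufa2, -0.18 for Ndufb11, -0.15 for Ndufa1 and -0.23 for Ndufb9, and none of these passed. Leaving out KO denervated replicate 1 or 3 or KO control replicate 1 each ended the KO calls of Ndufa1, Ndufa2 and Ndufb11, and leaving out KO control replicate 2 those of Ndufa2 and Ndufb11, at adjusted p up to 0.135. That of Ndufa2 also ended without WT denervated replicate 1 or any 1 of the WT control arrays. The KO call of Ndufb10 ended with normexp alone (adjusted p = 0.0581). With a replicate block over both genotypes Ndufb10 also passed in WT muscle (adjusted p = 0.0303). Ndufa13, a membrane subunit also known as GRIM-19, was the member with a missing value. It gave 7.07, 7.64 and 7.39 in KO denervated muscle, against 7.94, 8.1 and 8.0 in KO control muscle. In WT muscle it gave 8.09 and 7.48 on the 2 usable denervated arrays, against 7.52, 7.85 and 8.22 on the control arrays. The KO groups did not overlap and the WT groups did. The change in KO muscle was -0.65 ± 0.23 (SE), 63.9% of the control level (adjusted p = 0.0391), but it turned to 0.07 with quantile normalization and 0.06 in the authors' deposited values. The KO call also ended with a replicate block within genotype (adjusted p = 0.0516) and without KO denervated replicate 1 or 3, any 1 of the KO control arrays, or WT control replicate 2. The WT change, fitted on 2 denervated and 3 control arrays, was -0.08 ± 0.25 (SE), 94.8% of the control level (adjusted p = 0.832).

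The 5 accessory subunits that passed in neither genotype were Ndufb3, Ndufa7, Ndufb7, Ndufs4 and Ndufs5. Ndufs4 and Ndufa7 belong to the N module, Ndufb7 and Ndufs5 face the intermembrane space, and Ndufb3 lies in the membrane arm. Ndufb7 gave 6.01, 6.14 and 5.78 in KO denervated muscle, against 6.25, 6.37 and 6.11 in KO control muscle. It gave 6.28, 6.47 and 6.07 in WT denervated muscle, against 5.97, 6.17 and 6.15 in WT control muscle. The groups overlapped in both genotypes. The log2 change of Ndufb7 was -0.27 ± 0.15 (SE) in KO muscle (adjusted p = 0.163) and 0.18 ± 0.15 (SE) in WT muscle (adjusted p = 0.379). In the authors' deposited values Ndufb7 was higher in denervated WT muscle (0.39, adjusted p = 0.0248). Ndufa7 gave 6.2, 6.32 and 6.17 in KO denervated muscle, against 6.58, 6.7 and 6.23 in KO control muscle. It gave 6.45, 6.55 and 6.36 in WT denervated muscle, against 6.41, 6.56 and 6.5 in WT control muscle. Here too the groups overlapped in both genotypes, although all KO denervated arrays lay below all WT denervated arrays. The log2 change of Ndufa7 was -0.28 ± 0.14 (SE) in KO muscle (adjusted p = 0.135) and -0.04 ± 0.14 (SE) in WT muscle (adjusted p = 0.856). Without KO control replicate 3 Ndufa7 passed in KO muscle (-0.41, adjusted p = 0.0375). It also passed as the mean of its probes (-0.47, adjusted p = 0.0213). Of these 5, 4 turned positive in KO muscle under quantile normalization, namely Ndufa7, Ndufb7, Ndufs4 and Ndufs5. The probe of Ndufb7 A_51_P519276 maps to chromosome 8 (plus strand), 86461651 to 86461710 in mm8, and that of Ndufa7 A_52_P347591 maps to chromosome 17 (plus strand), 33444270 to 33444329 in mm8.

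The 2 assembly factors differed in their values. Ndufaf1 works with Ecsit and Acad9 on an early intermediate of the membrane arm. Ndufaf1 gave 2.72, 2.72 and 2.56 in KO denervated muscle, against 3.5, 3.52 and 3.25 in KO control muscle. It gave 2.79, 2.92 and 2.91 in WT denervated muscle, against 3.16, 3.52 and 3.58 in WT control muscle. Denervated and control arrays did not overlap, and the KO denervated arrays lay below the WT denervated ones. On the log2 scale Ndufaf1 changed by -0.76 ± 0.15 (SE), 59.2% of the control level (adjusted p = 0.00162) in KO and -0.55 ± 0.15 (SE), 68.4% of the control level (adjusted p = 0.0129) in WT muscle. The WT call ended without WT control replicate 3 (adjusted p = 0.0527) and with normexp (adjusted p = 0.105). Its probe A_51_P176854 maps to chromosome 2 (minus strand), 119347209 to 119347843 in mm8.

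Ndufa12l (now Ndufaf2) is a relative of Ndufa12 that holds a late intermediate before Ndufa12 takes its place. Ndufa12l gave 2.54, 2.97 and 2.77 in KO denervated muscle, against 2.19, 1.83 and 7.32 in KO control muscle. It gave 2.75, 2.79 and 2.41 in WT denervated muscle, against 1.96, 2.0 and 2.2 in WT control muscle. The KO control array of replicate 3 stood far above the 11 other arrays, none of which passed 2.97. The scanner software marked the local background of that spot as non-uniform, and did so for 11 of the 456 spots of the members' probes. With all arrays the fit gave -1.02 ± 1.07 (SE) in KO muscle (adjusted p = 0.460) and 0.6 ± 1.07 (SE) in WT muscle (adjusted p = 0.690). Without that array Ndufa12l was higher in denervated muscle, by 0.75 in KO (adjusted p = 0.0122) and 0.60 in WT (adjusted p = 0.0228). All 3 WT denervated arrays lay above all 3 WT control arrays, and all 3 KO denervated arrays lay above the other 2 KO control arrays. In that fit 32 members fell in KO muscle and 25 in WT muscle, and Ndufa12l alone rose. Its probe A_52_P2947 maps to chromosome 13 (minus strand), 109173568 to 109173627 in mm8.

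**Figure D3:**
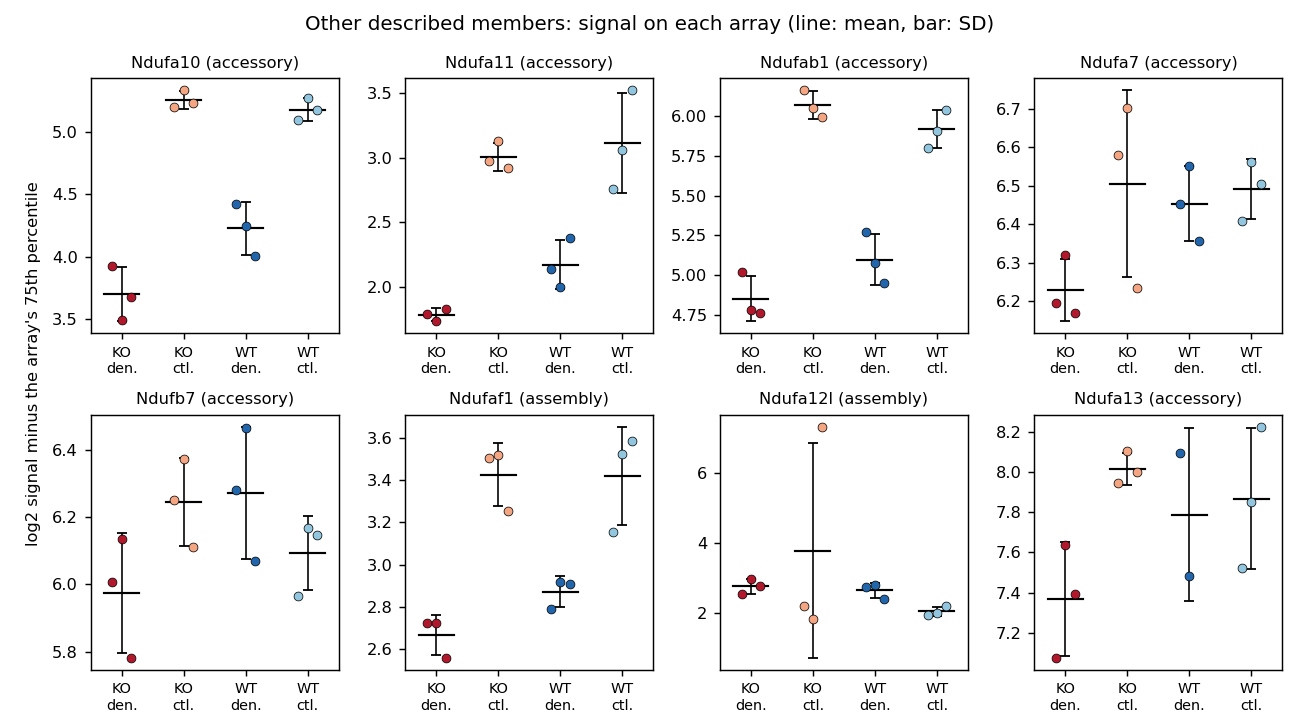
Signal of 6 accessory subunits and both assembly factors on each array, as log2 signal minus the 75th percentile of the array, with the mean and SD of each group (n = 3, and 2 for Ndufa13 in WT denervated muscle). Ndufa10, Ndufa11, Ndufab1 and Ndufaf1 are lower in denervated muscle, Ndufa7 and Ndufb7 overlap, and 1 KO control point of Ndufa12l stands at 7.32.

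Ndufa4, long listed as a complex I subunit, changed by -0.73 ± 0.15 (SE) (log2) in KO muscle (adjusted p = 0.00240) and by -0.42 ± 0.15 (SE) in WT muscle (adjusted p = 0.0474). The WT call did not hold with a replicate block within genotype (adjusted p = 0.105), nor without any of 10 of the 12 arrays in turn. Neither call held with quantile normalization (-0.31 in KO and -0.25 in WT muscle).

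Complex I genes that the arrays list under older clone names, outside the 38, moved likewise. Of 6 measured, 4 fell in both genotypes, with a median of -0.76 in KO and -0.61 in WT muscle. Among all genes, 23.2% fell in KO and 20.6% in WT muscle. The accessory subunit Ndufv3 changed by -0.89 ± 0.14 (SE) in KO and -0.73 ± 0.14 (SE) in WT muscle. The assembly factor Ndufaf5, known in human cells to hydroxylate Ndufs7, changed by -1.53 ± 0.15 (SE) in KO and -1.39 ± 0.15 (SE) in WT muscle. Of 10 assembly factors without an Nduf name, 7 fell in KO and 6 in WT muscle. Among them the membrane-arm factor Timmdc1 changed by -1.38 ± 0.16 (SE) in KO and -0.95 ± 0.16 (SE) in WT muscle, and Ecsit by -1.12 ± 0.19 (SE) in KO and -0.99 ± 0.19 (SE) in WT muscle. Nubpl, which delivers iron-sulfur clusters to the enzyme, passed in neither, at 0.06 ± 0.18 (SE) in KO and 0.32 ± 0.18 (SE) in WT muscle. Of the mitochondrially encoded subunits 1 was measured here, ND4L. It gave 6.07, 6.17 and 5.98 in KO denervated muscle, against 6.66, 6.61 and 6.77 in KO control muscle, and it gave 6.88, 6.58 and 6.22 in WT denervated muscle, against 6.75, 6.33 and 6.74 in WT control muscle. The KO groups parted and the WT groups overlapped, with log2 changes of -0.61 ± 0.18 (SE) in KO and -0.04 ± 0.18 (SE) in WT muscle.

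Regulators of mitochondrial genes were measured on the same arrays. Of 6, 4 fell in both genotypes, where 23.2% of all genes fell in KO and 20.6% in WT muscle. Perm1, a muscle regulator of oxidative genes, changed by -4.93 ± 0.41 (SE) in KO and -3.86 ± 0.41 (SE) in WT muscle. The coactivator Ppargc1a (PGC-1alpha) changed by -1.43 ± 0.25 (SE) in KO and -1.77 ± 0.25 (SE) in WT muscle, Ppargc1b by -1.23 ± 0.26 (SE) in KO and -0.72 ± 0.26 (SE) in WT muscle, and Esrra by -1.62 ± 0.15 (SE) in KO and -1.16 ± 0.15 (SE) in WT muscle. Nrf1 and Gabpa, whose motifs were searched above, passed in neither, at -0.11 ± 0.17 (SE) for Nrf1 and 0.04 ± 0.17 (SE) for Gabpa in KO muscle, and -0.21 ± 0.17 (SE) for Nrf1 and 0.1 ± 0.17 (SE) for Gabpa in WT muscle. Whether these changes bear on the complex I genes was not tested.

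Genes of the other complexes of the chain fell as well. The counts here stand against 23.2% of all genes falling in KO and 20.6% in WT muscle. Complex II had the lowest median of the 5 complexes, -1.59 in KO and -1.27 in WT muscle, and all 4 of its subunits fell in both. Of 9 complex III genes, 9 fell in KO (median -1.02) and 5 in WT muscle (median -0.50). Of 13 complex IV genes, 11 fell in KO (median -0.87) and 7 in WT muscle (median -0.54), while Cox8a rose in both (0.56 ± 0.14 (SE) in KO and 0.54 ± 0.14 (SE) in WT muscle). Of 12 complex V genes, 10 fell in KO (median -0.88) and 8 in WT muscle (median -0.58). The 35 subunits of complex I had medians of -0.95 in KO, between those of complexes III and V, and -0.66 in WT muscle, between those of complexes II and V. Its core alone was at -1.33 in KO and -0.82 in WT muscle. The medians were not tested against each other. Of 9 genes that mark mitochondrial mass, 5 fell in KO (median -0.62) and 4 in WT muscle (median -0.36).

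**Figure D4:**
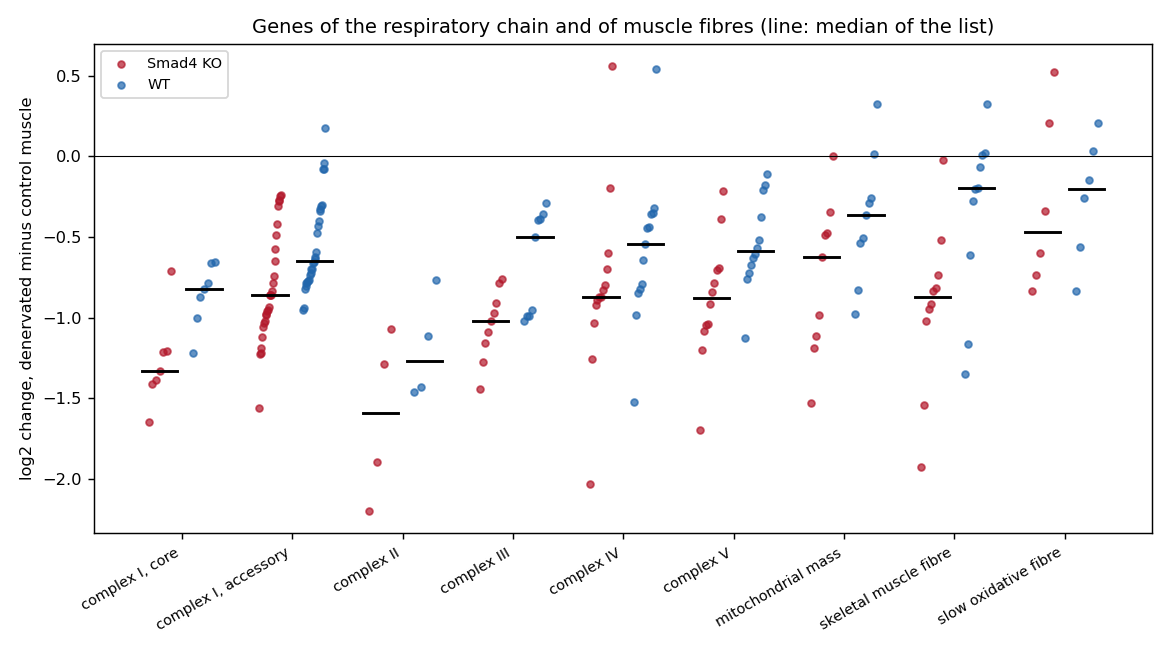
Log2 change on denervation of single genes (points) and the median of each list (lines) in KO (red) and WT (blue) muscle. Complex II has the lowest medians (-1.59 in KO and -1.27 in WT), the complex I core lies at -1.33 in KO and -0.82 in WT, its accessory subunits at -0.86 in KO and -0.65 in WT, and of the lists plotted the fibre markers differ most between the genotypes (-0.87 in KO and -0.20 in WT).

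Markers of some cell types moved with denervation too. Of all genes, 23.2% fell and 23.7% rose in KO muscle, and 20.6% fell and 18.7% rose in WT muscle. The WT counts of fibre, macrophage and fibroblast markers below lay near these shares. Of the 10 fibre markers, 8 fell in KO muscle (median -0.87) and 2 in WT muscle (median -0.20), and their summed linear signal ranged from 1801 to 2461 on the KO denervated arrays, against 3714 to 3918 on the KO control arrays. In WT muscle the sums overlapped, at 2125 to 3240 on the denervated arrays, against 2627 to 3720 on the control arrays. All 6 endothelial markers fell in KO and 5 in WT muscle (median -1.18 in KO and -1.20 in WT). Their sums lay between 12.5 and 15.9 in KO denervated and 25.2 and 28.5 in KO control muscle, and between 13 and 16 in WT denervated and 24.5 and 30.4 in WT control muscle. Of 5 macrophage markers, 3 rose in KO and 1 in WT muscle (median 1.15 in KO and 0.43 in WT). Their sums lay between 43.9 and 67.5 in KO denervated and 21.7 and 52.0 in KO control muscle, and between 39.0 and 48.7 in WT denervated and 25.2 and 41.0 in WT control muscle. Of 5 Schwann cell markers, 4 fell in both genotypes (median -1.78 in KO and -2.46 in WT). Their sums lay between 5.53 and 6.37 in KO denervated and 14.3 and 30.4 in KO control muscle, and between 3.71 and 5.33 in WT denervated and 15.8 and 26.3 in WT control muscle. No marker of these lists was at 0. Of 6 slow fibre markers, Myl3 fell and Tnnt1 rose in KO muscle, and none passed in WT muscle. Of 5 fibroblast markers, 1 fell in WT and none in KO muscle, and no adipocyte marker of 4 passed. In RNA of whole muscle, fewer cells of a type and less RNA per cell cannot be told apart. The part of these shifts in the complex I values was not tested.

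KO and WT muscle were then compared directly, which asks whether the loss of Smad4 altered complex I transcripts. In denervated muscle no member passed the test, where 2.19% of all genes did (333 of 15233). The members' median difference was -0.24, and 33 of 38 were below 0, against a median of -0.01 for all genes. At an unadjusted p under 0.05 there were 4 of the 38 members, where 16.3% of all genes passed, and the smallest adjusted p was 0.117, for Ndufa10 (-0.53 ± 0.15 (SE), n = 3 against 3). All 3 KO denervated arrays lay below all 3 WT denervated arrays for 11 of the 38 members, against 11.5% of all genes. Ndufb5 differed by -0.51 ± 0.17 (SE) (adjusted p = 0.17). With quantile normalization the members' median difference shrank to -0.07 and in the authors' deposited values to -0.09, with no member past the threshold in either. Within slides the members' median difference was -0.30 on slide 1, with 36 of 37 members below 0, and -0.10 on slide 4, with 22 of 38. Over all genes it was -0.06 on slide 1 and 0.04 on slide 4.

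In control muscle the genotypes were close. No member passed the test, and of all genes Smad4 alone did (0.00656%). No member had an unadjusted p under 0.05, where 4.05% of all genes did. The median difference was 0.04, and for no member were the KO control and WT control arrays apart in either direction (all KO control below all WT control arrays for 4.84% of all genes). Within slides the median was 0.14 on slide 2 and -0.19 on slide 3, so its sign changed between the slides. The median over all genes changed sign as well, at 0.06 on slide 2 and -0.11 on slide 3.

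The interaction asks whether denervation changed a gene by a different amount in KO than in WT muscle. No member passed the test, where 0.184% of all genes did (28 of 15233). The change was more negative in KO than in WT muscle for 35 of 38 members, among them all 7 core subunits, against 48.5% of all genes. The 35 include Ndufa12l, which without KO control replicate 3 changed by 0.75 in KO and 0.60 in WT muscle. The summed core signal was 391 on WT control replicate 1, against 541 and 539 on replicates 2 and 3. The part of that array in the core values was not tested. Members share arrays and are not independent, so the count of 35 carries no p. The median interaction of the members was -0.28, against 0.01 for all genes. With quantile normalization it was -0.10, with 28 members and 6 core subunits more negative in KO. In the authors' deposited values it was -0.10, with 27 members and 6 core subunits. The accessory subunits then had nearly equal medians in the genotypes, -0.50 in KO and -0.52 in WT muscle with quantile normalization. Among the core subunits the interaction of Ndufs7 was -0.59 ± 0.25 (SE) (adjusted p = 0.489). Ndufs3 (-0.05 ± 0.20 (SE)) and Ndufs8 (-0.17 ± 0.21 (SE)) differed least among them. The fibre markers had a median interaction of -0.56, with 10 of 10 below 0, and complex V one of -0.41, with 12 of 12 below 0. Their part in the values of complex I was not tested.

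**Figure D5:**
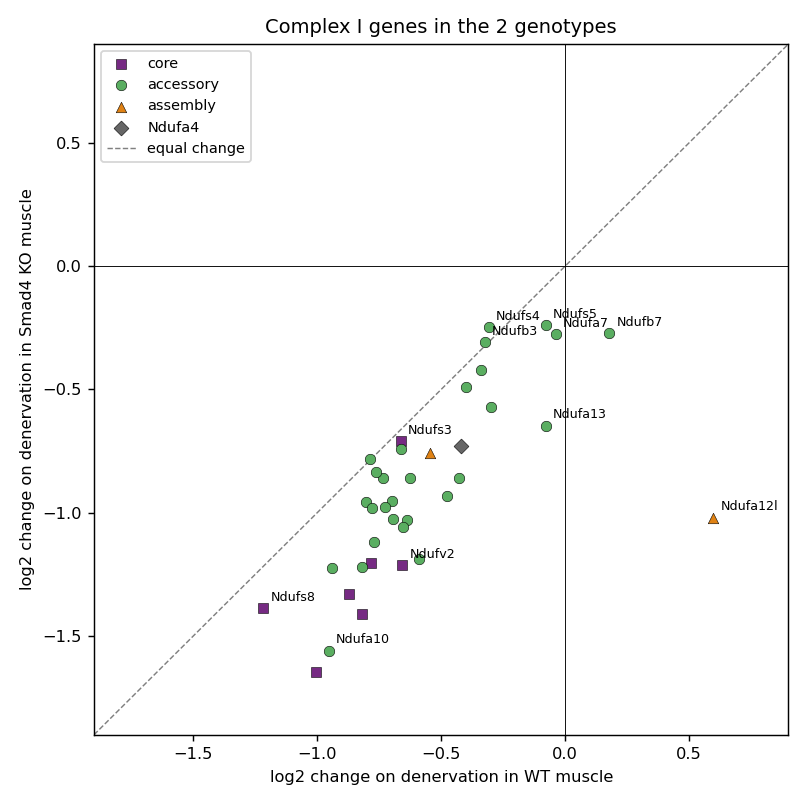
Log2 change on denervation in KO muscle (y axis) against that in WT muscle (x axis) for the 38 members, marked by role, with the line of equal change dashed. Of the 38 points, 35 lie below that line, and Ndufa12l stands apart, with 1 KO control array at 7.32.

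Slides could be compared within pairs of arrays. On slide 3 the denervated KO array lay below the control KO array for 38 of 38 members (median -0.92), and on slide 4 for 36 of 38 (median -0.70). The control array on slide 3 was KO control replicate 3, on which Ndufa12l stood at 7.32, far above the other arrays. Ndufa12l is among the 38 through that value alone. On slide 1 the denervated WT array lay below the control WT array for 32 of 37 members (median -0.50) and for 6 of the 7 core subunits. Over all genes these medians were 0.05 on slide 3 and 0.03 on slide 4 in KO muscle, and -0.0026 on slide 1 in WT muscle. With slide as a fixed block, 29 members fell in KO and 20 in WT muscle. The share of all genes that fell in this fit is not given, so these counts are not set against it.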

How the data were processed

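Cy3-labelled RNA of 12 gastrocnemius muscles was read on single-channel Agilent mouse arrays. Per the file headers, the scanner files give each spot's intensity after background subtraction and detrending (Feature Extraction 10.7.3.1; 10.5.1.1 per the submitters' processing notes) and probe positions on mm8. The authors' deposited value table gives linear intensity whose quartiles are nearly equal between arrays; it served as an alternative. Groups came from the sample titles.

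Control spots were left out, outlier spots set missing and spots of a probe averaged. Signal was scaled as log2 minus the 75th percentile of each array. Probes had to be well above background on all 3 arrays of at least 1 group, which left 22533, and the brightest stood for its gene, giving 15233 genes (226 with a missing value). The test was limma (version 3.58.1, under R 4.3.3; two-sided lmFit and eBayes fit of 4 group means without covariates), with Benjamini-Hochberg adjustment over all genes in each of 5 comparisons. An exact permutation test of 3 against 3 cannot give a p under 0.1. Python 3.11.15, pandas 2.3.3, numpy 2.4.6 and matplotlib 3.10.9 were also used, and the fit was tested on simulated data.

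The members, lists, roles and motifs were chosen with earlier results of these data known. Every array's value is given for 6 of the core subunits (1 is not reported here by itself and counts only in totals), for the 3 lowest and 2 highest accessory subunits and both assembly factors by denervation change, and for members missing on an array. Deviations of same-numbered denervated and control arrays correlated at r 0.305, 0.107 and 0.232 in WT muscle. In KO muscle the values were 0.0892, 0.0151 and 0.174. The main test took no numbers as pairs. In the alternative fits, the replicate block within genotype paired same-numbered arrays in KO as well as WT muscle. The other replicate block joined arrays of one number across both genotypes. Alternatives changed the scaling, background correction, filter, probe choice, slide, replicate block and the arrays used.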

Additional observations from a re-analysis of the deposited data

How the results depend on the processing

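In KO muscle between 22 (normexp background correction) and 33 of the 38 members were called on denervation under the alternatives, and between 28 and 33 when 1 array was left out. In WT muscle the number was 9 with normexp and otherwise between 18 and 27, with 18 without WT control replicate 3. Here and above, member counts of alternative fits stand without the share of all genes called in the same fit. The exception is normexp in WT muscle. Whether a change in these counts is particular to complex I was not tested. No alternative called a member for KO against WT or for the interaction. The members' median change in KO muscle was -0.65 with quantile normalization and -0.65 in the authors' deposited values, and in WT muscle it was -0.87 with normexp. For KO against WT in denervated muscle the median was -0.0711 with quantile normalization, -0.0715 with normexp and -0.0885 in the authors' values. The interaction median was -0.10 with quantile normalization and -0.10 in the authors' values. The cause of these shifts was not tested. With a replicate block, 32 members were called in KO and 26 in WT muscle, and with a replicate block within genotype 31 in KO and 24 in WT muscle. The block within genotype ended the calls of Ndufv2 and Ndufa4 in WT and of Ndufa13 in KO muscle, and the block over both genotypes ended that of Ndufa4 and added Ndufb10 in WT muscle. It changed no other call. The sign of the KO change turned for 5 members with quantile normalization and in the authors' values, in this order: Ndufa13 0.0663 and 0.0626, Ndufa7 0.12 and 0.16, Ndufb7 0.0878 and 0.13, Ndufs4 0.0017 and 0.0358, Ndufs5 0.26 and 0.34 (adjusted p = 0.0348 in the authors' values). In WT muscle it turned with quantile normalization and in the authors' values for Ndufa7 (0.10 and 0.15) and Ndufs5 (0.10 and 0.13), with quantile normalization for Ndufa13 (0.16), and with normexp for Ndufb7 (-0.13). Leaving out 1 array gave KO changes of Ndufa12l between -2.0 and 0.75, and WT changes between -0.38 and 0.23 for Ndufa13, -0.0869 and 0.0107 for Ndufa7, -0.55 and 0.017 for Ndufs4 and -0.21 and 0.0549 for Ndufs5. Over all members and alternatives, 811 of the KO and 786 of the WT values kept their sign and side of the threshold. With the sign kept, 49 KO and 67 WT values lost the call, and 3 KO and 10 WT values gained it. The sign turned for 11 KO and 11 WT values, whether or not the call changed. Only 3 arrays per group and the scaling limit small changes. No spot was saturated.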
